A study of Mus musculus with 12 samples.

Results

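The 36 genes described here encode the machinery that carries secreted and membrane proteins into the endoplasmic reticulum (ER) and folds them there. They were chosen by name, as a list of ER translocation, chaperone and folding genes, out of the 41388 gene identifiers in the count tables, and all 36 were matched to an identifier. By role they are 3 genes of targeting to the membrane, 5 of the translocation channel, 4 of the translocon-associated complex, 4 of the signal peptidase, 6 of the oligosaccharyltransferase, 6 chaperones of the Hsp70 and Hsp90 families with their cofactors, 3 of lectin chaperones and glycoprotein quality control, and 5 of disulfide formation. The mice, of strain C57/Bl6 and taken on postnatal day 21, carried Aldh1L1::RPL10a-eGFP, a ribosomal protein fused to a green fluorescent tag with expression driven in astrocytes by the promoter of Aldh1L1, and the labels name cortex and hippocampus as the tissue. In translating ribosome affinity purification (TRAP), antibodies against the tag pull those ribosomes and their bound messages out of a lysate. The 12 libraries form 4 groups of 3. Cortex input is whole-tissue lysate before the purification and cortex TRAP is what the antibodies held from it. Synaptoneurosome input is a density fraction rich in detached synaptic endings with the fine processes that surround them, and PAP TRAP, named for peripheral astrocyte processes, is what the antibodies held from that fraction. All 4 groups share the transgene, strain, age, cycloheximide at 1 ug/mL, which holds ribosomes on their messages, and TTX, a sodium channel blocker, at 1 mM. The labels do not say whether the 3 libraries of a group came from separate mice, so p-values measure only the spread between these libraries.

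A protein bound for secretion or for a membrane carries a signal sequence that the signal recognition particle reads on the ribosome and delivers to its receptor on the ER. The chain then passes through the Sec61 channel, the signal peptidase removes the signal sequence, and the oligosaccharyltransferase adds a glycan to asparagine residues. Inside the ER, Hsp70 and Hsp90 family chaperones, the lectins calnexin and calreticulin, and protein disulfide isomerases fold the chain, and cells that meet unfolded protein raise many of these genes together through the unfolded protein response. The Ssr1 to Ssr4 proteins form the translocon-associated protein complex, whose usual short name is also TRAP. Here TRAP always means the ribosome purification.

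Gene counts ranged from 4918113 to 17553985 per library. Transcripts of the mitochondrial chromosome took 1.03% to 91.9% of them, which left 1423296 to 7777763 counts of nuclear genes, with the fewest in the synaptoneurosome inputs (1423296 to 2476076). By group, mitochondrial transcripts took 44.8% to 50.2% for cortex input and 1.03% to 1.28% for cortex TRAP. They took 83.8% to 91.9% for synaptoneurosome input and 35.6% to 47.6% for PAP TRAP. The 10 astrocyte markers summed to 0.790% to 0.877% of nuclear counts for cortex input, 6.88% to 10.1% for cortex TRAP, 4.01% to 4.87% for synaptoneurosome input and 4.85% to 9.53% for PAP TRAP. Slc1a2 was the largest part of the astrocyte sum in every library. In PAP TRAP it had 230386, 480860 and 363460 counts, where Glul, the next highest, had 18074, 41679 and 32455. In cortex TRAP it had 294637, 297594 and 461225, and Glul had 102187, 63648 and 117921. Of the 10 markers, 8 were called lower in PAP TRAP than in cortex TRAP and 0 higher. The 10 neuronal markers summed to 2.02% to 2.33% for cortex input, 0.248% to 0.314% for cortex TRAP, 1.68% to 2.09% for synaptoneurosome input and 1.90% to 2.95% for PAP TRAP. This sum was low in cortex TRAP and not in PAP TRAP. Most of the PAP TRAP sum was Camk2a, with 133797, 91400 and 137558 counts. Snap25, the next highest there, had 11198, 8287 and 13417. Of the 36 genes, 35 passed the filter on low counts. Srp54a, a subunit of the signal recognition particle, had 0 counts in all 12 libraries. It has 2 near-identical copies in the annotation, of which Srp54c covers 80.9% of its transcript at 98% identity or more, so the 0 cannot be read as absence of the message. A near-identical copy also covers 84.0% of the transcript of Sec61b, and another gene overlaps Srprb on the same strand, so their counts are uncertain.

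Together the 36 genes took 0.247%, 0.253% and 0.245% of the nuclear counts in the cortex inputs and 0.253%, 0.265% and 0.282% in the cortex TRAP libraries. Their share was 0.494%, 0.505% and 0.569% for synaptoneurosome input, against 0.337%, 0.295% and 0.403% for PAP TRAP. Every library of the synaptoneurosome layer, input or immunoprecipitate, lay above all 6 whole-tissue libraries, and the 3 synaptoneurosome inputs lay above the 3 PAP TRAP libraries. The role groups did not all share this order. The Hsp70 and Hsp90 group took 0.0597% ± 0.00431 of nuclear counts for cortex input, 0.0458% ± 0.00727 for cortex TRAP, 0.138% ± 0.0285 for synaptoneurosome input and 0.104% ± 0.0269 for PAP TRAP (SD, n = 3), and the layer did not overlap with whole tissue. The translocon-associated complex took 0.0443% ± 0.00289, 0.0648% ± 0.0166, 0.0671% ± 0.0115 and 0.0525% ± 0.00975, in the same order, and its PAP TRAP libraries overlapped with both whole-tissue groups and lay below all synaptoneurosome inputs, the nearest pair at 0.0594% and 0.0598%.

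**Figure D1:**
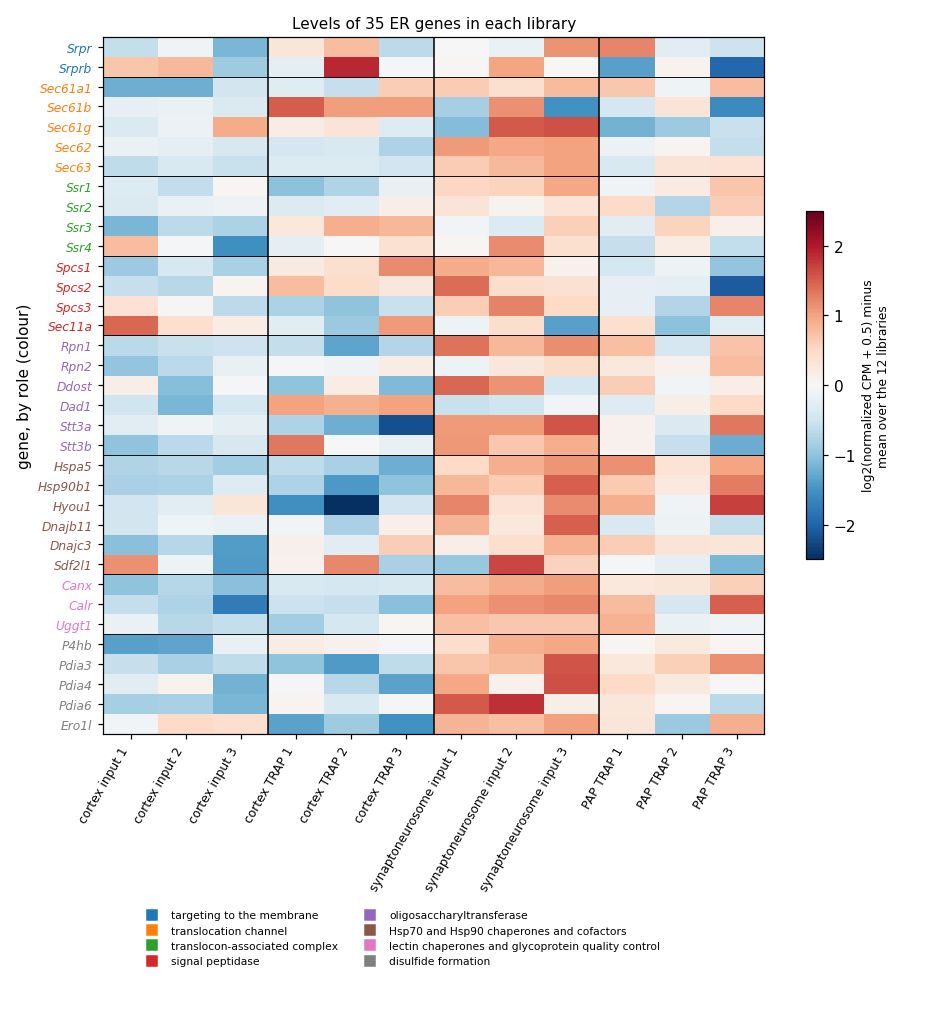
Heat map of the 35 tested genes (rows, coloured by role) in the 12 libraries (columns). Colour is log2(normalized CPM + 0.5) minus the gene's mean over the 12 libraries. Hspa5, Hsp90b1, Canx and Calr are low in the 6 whole-tissue libraries and high in the synaptoneurosome inputs, Dad1 and Ssr3 are high in cortex TRAP, and the rows of Sec61b, Sec61g, Srprb and Sdf2l1, whose colour varies within groups, belong to genes with few counts.

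Per length, as mean normalized CPM per kb of exon, a chaperone led the list in 3 of the 4 groups. Hsp90b1, the Hsp90 of the ER lumen, led in cortex input at 26.3 CPM per kb, in synaptoneurosome input at 82.8 and in PAP TRAP at 69.7, followed in each by Canx, calnexin, a membrane-bound lectin chaperone, at 18.5, 66.2 and 46.2. In cortex TRAP the order was different: Ssr3, a subunit of the translocon-associated complex, led at 46.4 CPM per kb, before Canx at 26.6, Dad1, a small subunit of the oligosaccharyltransferase, at 20.3 and Hsp90b1 at 19.5. The last pair differed by less than the spread of Hsp90b1 over its 3 libraries. In the annotation, 10.3% of the exon length of Hsp90b1 overlaps genes on the opposite strand and 5.4% a gene on the same strand.

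The first comparison asks how the messages of the synaptoneurosome layer differ from those of whole tissue before any purification. Genes of every role group except targeting and the signal peptidase were called higher in the layer: 3 of 5 of the channel, 2 of 4 of the translocon-associated complex, 3 of 6 of the oligosaccharyltransferase, 4 of 6 Hsp70 and Hsp90 chaperones, 3 of 3 lectin chaperones and 3 of 5 genes of disulfide formation. Of the 35 genes tested, 18 rose and 0 fell in synaptoneurosome input against cortex input at an adjusted p under 0.05 (edgeR quasi-likelihood F test, Benjamini-Hochberg over all genes tested), while 9.32% of all 13364 genes were called, 7.26% higher and 2.07% lower. Without adjustment, 23 of the 35 had a p under 0.05, as did 3280 of all 13364 genes tested. The median log2 change of the 35 genes was 1.21, that of all genes tested was -0.14, and 34 of the 35 lay above 0. The exception was Sec11a, a catalytic subunit of the signal peptidase, with a log2 change ± SE of -1.06 ± 0.75 (adjusted p = 0.411), a gene with 8 to 246 counts per library. Spcs1 and Spcs2 of the signal peptidase had log2 changes of 1.41 and 1.22 and did not pass. Spcs1 was called higher in 4 of 15 alternative fits, and Spcs2 and Spcs3 in 1 each.

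Among the chaperones, Hspa5, also called BiP, is the Hsp70 of the ER lumen and holds the stress sensors of the ER inactive while protein is folded. Values of a gene are given for replicates 1, 2 and 3 of each group. It stood at 43.1, 44.7 and 39.8 normalized CPM for cortex input, 46.4, 41.0 and 31.0 for cortex TRAP, 102, 137 and 157 for synaptoneurosome input and 159.9, 92.0 and 144 for PAP TRAP. All 6 libraries of the synaptoneurosome layer were above all 6 whole-tissue libraries. Hspa5 rose 3.11-fold (95% interval 2.07 to 4.67) in synaptoneurosome input (log2 change 1.64 ± 0.28, adjusted p = 0.000839). Hsp90b1 stood at 93.0, 94.0 and 131 normalized CPM for cortex input, 94.7, 59.96 and 81.2 for cortex TRAP, 288, 254 and 459.8 for synaptoneurosome input and 256, 192 and 395 for PAP TRAP, again with no overlap between layer and whole tissue, and rose by 1.66 ± 0.31 on the log2 scale (adjusted p = 0.00157). The other 2 members of this role group that passed were cofactors of Hspa5: Dnajc3, which also inhibits the kinase of the stress sensor Perk, at 1.57 ± 0.33, and Dnajb11 at 1.21 ± 0.36.

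The lectin chaperones and the enzymes of disulfide formation held the 4 highest changes of the list, those of Pdia6, Calr, Canx and Pdia3. Canx stood at 81.5, 100.4 and 78.9 normalized CPM for cortex input, 126, 121 and 126 for cortex TRAP, 281, 314 and 337 for synaptoneurosome input and 198, 204 and 249.5 for PAP TRAP. Its 4 groups did not overlap and ran, from low to high, cortex input, cortex TRAP, PAP TRAP and synaptoneurosome input. It rose 3.57-fold (95% interval 2.57 to 4.96) in synaptoneurosome input, with an adjusted p of 3.51e-05, the smallest of the 35. Calr, calreticulin, the soluble lectin chaperone, rose by 2.09 ± 0.39 on the log2 scale, and Uggt1, which tags misfolded glycoproteins for another round of folding, by 1.19 ± 0.36, so all 3 genes of this role group passed. Pdia3, the disulfide isomerase that works with calnexin and calreticulin, stood at 39.6, 33.5 and 38.4 normalized CPM for cortex input, 29.5, 22.0 and 38.4 for cortex TRAP, 96.6, 103 and 178 for synaptoneurosome input and 71.9, 90.2 and 132 for PAP TRAP, and all 6 libraries of the layer exceeded the whole-tissue libraries. It rose by 1.76 ± 0.32 on the log2 scale (adjusted p = 0.00128). Pdia6, another isomerase, had the highest of them, 2.34 ± 0.47 or 5.07-fold (95% interval 2.57 to 9.999), and P4hb, the founding disulfide isomerase, rose by 1.66 ± 0.35. Pdia4, at 1.45 ± 0.54, and Ero1l, the oxidase that recharges the isomerases, at 0.59 ± 0.45, did not pass.

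Of the channel, Sec62 and Sec63, which assist import through Sec61, rose by 1.30 ± 0.25 and 1.35 ± 0.27 on the log2 scale, and Sec61a1, the pore itself, by 1.58 ± 0.39. The small channel subunits Sec61b and Sec61g had 1 to 91 counts per library and 95% intervals of -1.90 to 2.65 and -0.95 to 2.91, too wide to place them. Opposite-strand genes overlap 11.7% of the exon length of Sec62 and 8.2% of that of Sec61a1. In the oligosaccharyltransferase, Rpn1, Stt3a and Stt3b rose by 1.75 ± 0.36, 1.47 ± 0.43 and 1.60 ± 0.41, while Dad1 had a change of 0.31 ± 0.30 (adjusted p = 0.574). Ssr1 and Ssr3 of the translocon-associated complex passed narrowly, at 0.97 ± 0.30 and 0.97 ± 0.30 (adjusted p = 0.0435 and 0.0472). Srpr, the receptor of the signal recognition particle, stood at 5.37, 7.84 and 3.55 normalized CPM for cortex input, 10.5, 14.8 and 5.14 for cortex TRAP, 8.51, 7.46 and 18.9 for synaptoneurosome input and 20.1, 6.78 and 5.67 for PAP TRAP, with overlapping groups and a change of 1.07 ± 0.61 (adjusted p = 0.295). Spcs3, a subunit of the signal peptidase, stood at 37.1, 29.0 and 18.0 normalized CPM for cortex input, 16.4, 14.0 and 19.2 for cortex TRAP, 44.1, 68.1 and 40.5 for synaptoneurosome input and 24.9, 16.9 and 67.4 for PAP TRAP; its synaptoneurosome inputs lay above the cortex inputs, and its change of 0.86 ± 0.43 did not pass (adjusted p = 0.230).

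Of the 18 calls, 11 held with each of the 6 libraries left out. Ssr1, Stt3a and Uggt1 lost theirs without any 1 of the 6 (adjusted p 0.0693 to 0.203, 0.0617 to 0.129 and 0.0781 to 0.174). Ssr3 and Dnajb11 lost theirs without any library other than synaptoneurosome input replicate 2 (0.0739 to 0.210 and 0.0752 to 0.193), Stt3b without cortex input replicate 1 or 2 or synaptoneurosome input replicate 1 (0.0615 to 0.0965), and Sec61a1 without cortex input replicate 1 or 2 (0.0882 to 0.0909). With no filter on low counts, Ssr1, Dnajb11 and Uggt1 were past the threshold no longer (adjusted p = 0.0523, 0.0529 and 0.0618), nor with length-corrected offsets were Ssr1 and Uggt1 (0.0735 and 0.0944). Markers of several cell types moved with this comparison. Astrocyte markers rose in 8 of 10 cases and their summed share went from 0.790% to 0.877% up to 4.01% to 4.87% of nuclear counts. Microglial markers rose in 6 of 8, from 0.0125% to 0.0157% up to 0.0586% to 0.126%, and none of the 8 was at 0 in all libraries of a group. The part of these markers in the rise of the ER genes was not tested, and in such bulk libraries a larger share of cells of a type and more RNA per cell cannot be told apart.

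**Figure D2:**
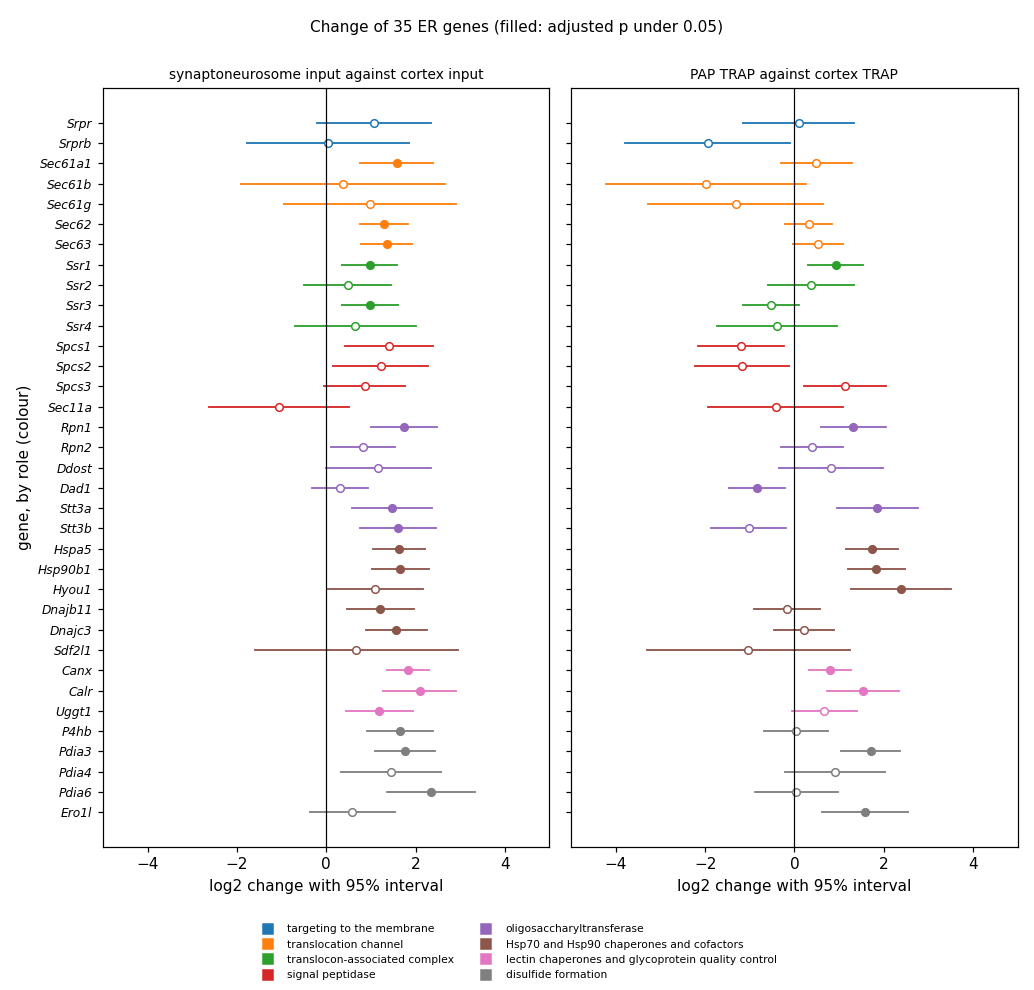
Log2 change with its 95% interval (horizontal axis) for the 35 tested genes (rows, coloured by role) in synaptoneurosome input against cortex input (left) and PAP TRAP against cortex TRAP (right). Filled points passed an adjusted p of 0.05: 18 higher on the left, and 10 higher and 1 lower on the right. On the left nearly all points sit right of 0, and on the right points lie on both sides, with Dnajb11 and Sdf2l1 left of 0 among the chaperones and Spcs1 and Spcs2 left and Spcs3 right of it in the signal peptidase.

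Many chaperone genes are known to carry an ER stress response element (ERSE), a promoter motif read by the transcription factors NF-Y and Atf6. The promoters of the list were searched for it because members moved together, and the motif letters were chosen after the expression changes had been seen. Promoter sequences came from RefSeq (GRCm38.p6), which held 32 of the 36 genes, and the window was the 250 bases before the transcription start. The ERSE, CCAAT and CCACG with 9 bases of any kind between them, on either strand, occurred in 6 of the 32 genes and in 0.13% of the 27025 genes of the table. As chaperone genes are already known to carry the motif, this count is no test of the list. The 6 were Hspa5, Hsp90b1, Dnajc3, Canx, Calr and Pdia6, and Hsp90b1 held 2 copies. The sites are shown because all of these genes rose, 5′ to 3′ on the strand that reads CCAAT first, with the fixed letters of the motif in capitals.
Hspa5, chr2:34772025-34772043: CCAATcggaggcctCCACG
Hsp90b1, chr10:86705638-86705656: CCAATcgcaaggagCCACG
Hsp90b1, chr10:86705533-86705551: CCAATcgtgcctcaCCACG
Dnajc3, chr14:118937827-118937845: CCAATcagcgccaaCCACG
Canx, chr11:50325800-50325818: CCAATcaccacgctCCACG
Calr, chr8:84847075-84847093: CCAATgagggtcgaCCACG
Pdia6, chr12:17266491-17266509: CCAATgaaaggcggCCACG

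The second copy in Hsp90b1 and the site of Calr lie on the strand opposite to the gene, and the other sites on the gene's strand. The site of Hspa5 lay 47 to 65 bases before the RefSeq start, that of Pdia6 80 to 98 and that of Dnajc3 87 to 105. Those of Hsp90b1 lay 194 to 212 and 89 to 107 bases before it, that of Canx 127 to 145 and that of Calr 144 to 162. The windows of Canx and Dnajc3, which lie wholly before the gene's start in the GENCODE M21 annotation (GRCm38) too, are shown whole, 5′ to 3′ on the gene's strand, with the ERSE letters in capitals.
Canx, minus strand, chr11:50325674-50325923: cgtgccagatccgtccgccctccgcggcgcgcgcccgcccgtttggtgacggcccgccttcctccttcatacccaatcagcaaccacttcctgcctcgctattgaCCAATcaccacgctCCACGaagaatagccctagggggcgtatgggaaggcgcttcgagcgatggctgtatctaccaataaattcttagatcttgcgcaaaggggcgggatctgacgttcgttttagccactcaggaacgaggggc
Dnajc3, plus strand, chr14:118937682-118937931: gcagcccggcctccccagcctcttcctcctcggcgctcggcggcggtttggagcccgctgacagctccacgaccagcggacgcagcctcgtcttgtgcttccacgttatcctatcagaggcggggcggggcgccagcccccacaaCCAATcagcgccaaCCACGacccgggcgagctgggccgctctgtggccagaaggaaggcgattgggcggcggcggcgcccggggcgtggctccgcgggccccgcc

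All 6 genes with the motif rose in synaptoneurosome input against cortex input, as did 11 of the 25 tested genes whose window lacked it. Over all genes tested, 7.26% were called higher there. In PAP TRAP against cortex TRAP, 4 of the 6 and 5 of the 25 rose, against 19.3% of all genes tested. Because the motif was chosen after these changes had been seen, this split of the calls is no test of the motif. A match describes the letters in this window and shows no binding. Of the other motifs searched on both strands, none was found in the 32 windows: ERSE-II (ATTGG and CCACG with 1 base between them), the Xbp1 core TGACGTGG and the cyclic AMP response element TGACGTCA, which occurred in 0.037%, 0.603% and 1.77% of all genes. In the GENCODE M21 annotation Hspa5 spans chr2:34771970-34777547 and Hsp90b1 chr10:86690209-86705509, so the site of Hspa5 and none of those of Hsp90b1 falls within the gene there. Canx spans chr11:50293961-50325673 and Calr chr8:84841850-84846934.

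PAP TRAP against cortex TRAP compares what the antibodies held from the synaptoneurosome layer with what they held from whole tissue. Mitochondrial transcripts took 35.6% to 47.6% of counts in PAP TRAP and 1.03% to 1.28% in cortex TRAP. The summed share of the neuronal markers was not low in PAP TRAP either, but most of that sum was Camk2a. Of the 10 neuronal markers, 9 were called higher in PAP TRAP against cortex TRAP. Against synaptoneurosome input, 7 of the 10 had a change below 0. With these mitochondrial and neuronal counts, the messages of PAP TRAP cannot be taken as those of tagged ribosomes alone. The part of these differences in the values below was not tested. Lumenal chaperones and lectins were among the genes called higher in PAP TRAP, and no gene of the signal peptidase or the channel was at the threshold used. Of the 35 genes, 10 rose and 1 fell, against a background of 33.9% of all genes called, 19.3% higher and 14.6% lower, so the share called is near the background. Without adjustment, 16 of the 35 had a p under 0.05, as did 5910 of all 13364 genes tested. The median log2 change was 0.38 over the 35 genes and -0.28 over all genes tested. By role, 3 of 6 Hsp70 and Hsp90 chaperones, 2 of 3 lectin chaperones, 2 of 5 genes of disulfide formation and 1 of 4 of the translocon-associated complex rose. Of the 6 oligosaccharyltransferase genes 2 rose and 1 fell, and none of the 5 channel genes, 4 signal peptidase genes or 2 targeting genes passed.

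Hspa5 rose 3.35-fold (95% interval 2.23 to 5.03) in PAP TRAP (log2 change 1.74 ± 0.28, adjusted p = 8.32e-05), with every PAP TRAP library above every cortex TRAP library. Hsp90b1 rose by 1.84 ± 0.31 (adjusted p = 0.000127), Pdia3 by 1.71 ± 0.32 (adjusted p = 0.000360) and Calr by 1.53 ± 0.38, each without overlap between the groups. Hyou1, an Hsp70 relative that exchanges nucleotide on Hspa5, stood at 16.9, 19.9 and 29.6 normalized CPM for cortex input, 7.99, 2.82 and 17.1 for cortex TRAP, 56.2, 31.1 and 55.2 for synaptoneurosome input and 45.1, 22.6 and 79.3 for PAP TRAP. Its PAP TRAP libraries were all above its cortex TRAP libraries, and its change was the highest of the list, 2.39 ± 0.53 (adjusted p = 0.00194). Without cortex TRAP replicate 3 it was 3.31. Canx rose by 0.80 ± 0.22 (adjusted p = 0.00882). The Hspa5 cofactors Dnajb11 and Dnajc3 had changes of -0.16 ± 0.36 and 0.22 ± 0.32 and did not pass, nor did P4hb and Pdia6, at 0.03 ± 0.34 and 0.04 ± 0.45.

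Rpn1, a subunit that brings substrate to the oligosaccharyltransferase, rose by 1.32 ± 0.35 and Ssr1 by 0.92 ± 0.29. Ero1l stood at 12.2, 18.2 and 17.3 normalized CPM for cortex input, 4.76, 6.63 and 4.18 for cortex TRAP, 23.4, 21.8 and 26.4 for synaptoneurosome input and 15.9, 6.45 and 24.4 for PAP TRAP. PAP TRAP replicate 2 lay within the range of the cortex TRAP libraries and the other PAP TRAP libraries lay above it, with a change of 1.59 ± 0.46 (adjusted p = 0.0121). Dad1 stood at 28.4, 17.9 and 29.8 normalized CPM for cortex input, 81.6, 75.4 and 81.4 for cortex TRAP, 27.3, 28.4 and 38.2 for synaptoneurosome input and 32.2, 44.96 and 56.0 for PAP TRAP. Its 3 cortex TRAP libraries were above all others, and it was the 1 member that fell in PAP TRAP, by 0.84 ± 0.30 on the log2 scale (adjusted p = 0.0364). Spcs1 and Spcs2, subunits of the signal peptidase, had log2 changes of -1.20 ± 0.46 and -1.18 ± 0.50, and Spcs3 had 1.14 ± 0.43. None of the 3 passed (adjusted p = 0.0533, 0.0773 and 0.0502). Spcs3 lay at the threshold and was called higher in 8 of 15 alternatives, among them DESeq2 (adjusted p = 0.0256) and the fit without PAP TRAP replicate 2 (0.0117), and also without PAP TRAP replicate 1 or cortex TRAP replicate 3 (0.0429 and 0.0426).

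Of the 11 calls, 8 held with each of the 6 libraries left out. Without PAP TRAP replicate 3, Ssr1 and Ero1l lost theirs (adjusted p = 0.112 and 0.0828) and Stt3a moved from 1.86 to 1.21, while Dad1 lost its call without any library other than PAP TRAP replicate 3 (adjusted p 0.0659 to 0.152). Dad1 also lost it without mitochondrial genes (0.0732), in a fit of the compared groups alone (0.125), with no filter (0.0787) and with length-corrected offsets (0.131). Long messages stood higher in PAP TRAP than short ones, with a Spearman rho between change and exon length of 0.37 across all genes and 0.41 across the 35, which are not independent replicates. With offsets corrected for length, Ssr1 turned to -0.02 (adjusted p = 0.962), Stt3a went to 1.04 (adjusted p = 0.0611) and Calr to 2.13. The same offsets gave 12 members called higher, with Ssr2 at 1.38 (adjusted p = 0.0365), Ddost at 1.69 (0.0313), Pdia4 at 1.65 (0.0254) and Spcs3 at 1.55 (0.0139) gained. Neuronal markers rose with this comparison in 9 of 10 cases, oligodendrocyte markers in 4 of 6 and microglial markers in 6 of 8, while 8 of 10 astrocyte markers fell. The microglial share went from 0.00220% to 0.00350% of nuclear counts in cortex TRAP up to 0.0243% to 0.0359% in PAP TRAP, and the oligodendrocyte share from 0.0581% to 0.0860% up to 0.779% to 1.03%. The part of these markers in the rise of the chaperones was not tested.

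**Figure D3:**
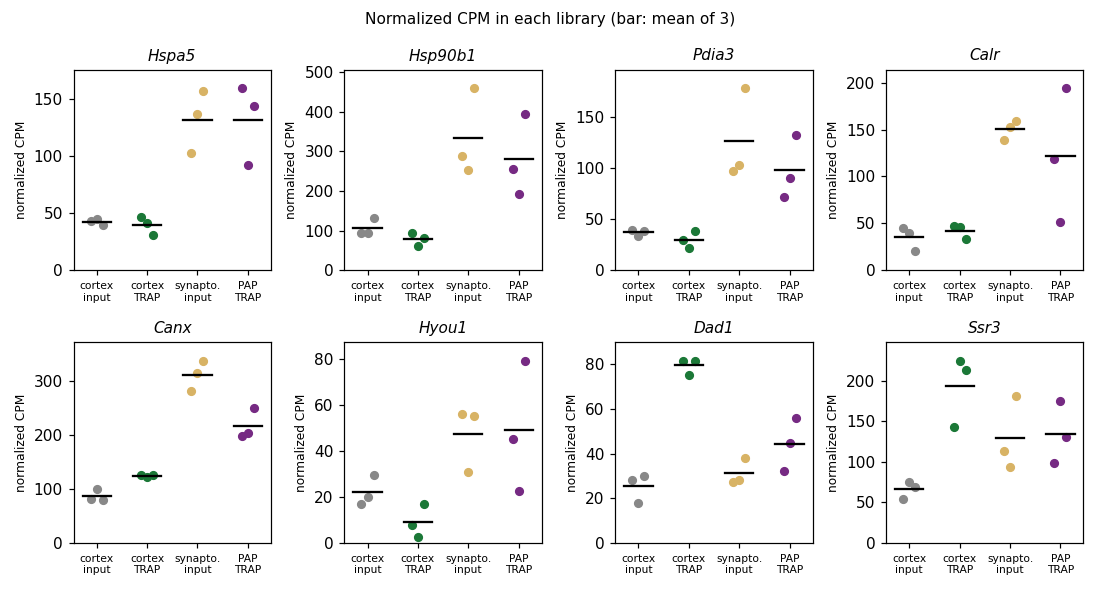
Normalized CPM (vertical axes, from 0) of 8 genes in each of the 12 libraries (points), with the mean of 3 as a bar. Hspa5, Hsp90b1, Pdia3, Canx and Hyou1 are higher in both groups of the synaptoneurosome layer than in both groups of whole tissue, apart from Hyou1 in PAP TRAP replicate 2, which lies among the cortex inputs, while Dad1 and Ssr3 have their highest means in cortex TRAP. For Hspa5 the whole-tissue libraries lie between 31.0 and 46.4 and those of the layer between 92.0 and 159.9.

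The comparisons of synaptoneurosome input with cortex input and of PAP TRAP with cortex TRAP share no library. Of the members that rose in them, 8 rose in both: Ssr1, Rpn1, Stt3a, Hspa5, Hsp90b1, Canx, Calr and Pdia3. That is 44.4% of the 18 and 80% of the 10. Over all genes tested, 525 rose in both, 54.1% of the 970 and 20.4% of the 2577. The other pairs of comparisons share libraries, and no overlap is given for them. Of the 35 genes, 12 were called in none of the 5 tests: Srpr, Srprb, Sec61b, Sec61g, Ssr2, Ssr4, Spcs3, Sec11a, Rpn2, Ddost, Sdf2l1 and Pdia4. Of these, Srprb, Sec61b, Sec61g, Ssr2, Spcs3, Rpn2, Ddost and Pdia4 passed in at least 1 alternative of some test. Among them Ssr2, another subunit of the translocon-associated complex, had a level of 8.92 ± 0.829 normalized CPM for cortex input, 9.46 ± 1.92 for cortex TRAP, 12.5 ± 1.24 for synaptoneurosome input and 12.3 ± 5.49 for PAP TRAP (SD, n = 3). Ddost and Rpn2, subunits of the oligosaccharyltransferase, had log2 changes of 1.16 ± 0.56 and 0.82 ± 0.34 in synaptoneurosome input against cortex input and of 0.83 ± 0.56 and 0.39 ± 0.33 in PAP TRAP against cortex TRAP.

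Cortex TRAP against cortex input asks which ER messages the tagged ribosomes of whole tissue carried above their input. The genes called higher came from the oligosaccharyltransferase, the translocon-associated complex, the signal peptidase, the Hsp70 cofactors and the disulfide isomerases, and of the 6 genes with an ERSE only Dnajc3 passed. Of the 35 genes, 6 rose and 2 fell, against 35.4% of all genes called, 15.9% higher and 19.5% lower, so a smaller share of the members than of all genes was called. Without adjustment, 11 had a p under 0.05, as did 5838 of all 13364 genes tested. The median log2 change was 0.09 over the 35 and 0.05 over all genes tested.

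Dad1, whose values are given above, rose 3.13-fold (95% interval 2.01 to 4.87) in cortex TRAP (log2 change 1.65 ± 0.30, adjusted p = 0.000271). Ssr3 stood at 53.7, 75.5 and 69.1 normalized CPM for cortex input, 143, 225 and 213 for cortex TRAP, 114, 93.5 and 181 for synaptoneurosome input and 98.1, 175 and 130.3 for PAP TRAP. The cortex TRAP libraries lay above all cortex inputs, and the change was 1.55 ± 0.30 (adjusted p = 0.000458). Dnajc3 stood at 16.2, 20.5 and 12.6 normalized CPM for cortex input, 36.8, 27.9 and 52.3 for cortex TRAP, 38.3, 45.7 and 62.1 for synaptoneurosome input and 52.0, 42.2 and 41.9 for PAP TRAP, with the cortex inputs below every other library, and changed by 1.25 ± 0.32 (adjusted p = 0.00498). Spcs1, Stt3b and P4hb also passed, at 1.43 ± 0.47, 1.23 ± 0.40 and 0.96 ± 0.35. Ero1l fell by 1.62 ± 0.46 on the log2 scale (adjusted p = 0.00943), and all its cortex TRAP libraries were below all its cortex inputs. Stt3a fell by 1.12 ± 0.43 (adjusted p = 0.0476). Hspa5, Hsp90b1, Calr and Pdia3 had changes of -0.11 ± 0.27, -0.43 ± 0.30, 0.26 ± 0.38 and -0.31 ± 0.31, with intervals that reach from -0.68 to 0.47 for Hspa5 to -0.53 to 1.05 for Calr.

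The calls of Dad1, Ssr3 and Ero1l held in every alternative that was run. The other 5 each lost theirs without some library: Dnajc3 without cortex input replicate 3 or cortex TRAP replicate 3 (adjusted p = 0.0646 and 0.0699), Spcs1 without cortex input replicate 1 or 3 or cortex TRAP replicate 3 (0.115 to 0.200), Stt3a without cortex input replicate 2 or 3 or cortex TRAP replicate 3 (0.0533 to 0.111), P4hb without any library other than cortex input replicate 3 (0.0924 to 0.281), and Stt3b without any cortex input or without cortex TRAP replicate 1 (0.0559 to 0.378). Without that last library the change of Stt3b was 0.46. With offsets corrected for length, Spcs1 went to 0.60 (adjusted p = 0.338), Stt3a to -0.54 (0.345) and P4hb to 0.53 (0.263), and with GC-corrected offsets Stt3a and P4hb lost their calls too (0.225 and 0.126). In the annotation, 16.3% of the exon length of Spcs1 overlaps Glt8d1 on the opposite strand, and since the strand setting of the counting is not given in the sources used here, reads of both cannot be told apart. Astrocyte markers rose in 10 of 10 cases and neuronal markers fell in 10 of 10. B lineage and plasma cell markers, of cells with an extensive ER, moved with the purifications: the 6 genes summed to 6.61e-05% to 0.000596% of nuclear counts in cortex input, 0.00129% to 0.0140% in cortex TRAP and 0.00343% to 0.0272% in PAP TRAP, all 4 that were tested rose in cortex TRAP, and Cd79a and Mzb1 had 0 to 3 counts in every library. Replicate 2 gave the highest share in both purifications. The other libraries had 0.00129% and 0.00195% in cortex TRAP and 0.00343% and 0.00349% in PAP TRAP. The part of these markers in the changes was not tested.

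The matching question in the layer is what PAP TRAP held above synaptoneurosome input. Few genes of any kind were called in this comparison. No ER gene of the list was called higher, and most had a change below 0. Of the 35 genes, 0 rose and 2 fell by edgeR, against 4.53% of all genes called, 3.0% higher and 1.53% lower. Without adjustment, 9 of the 35 had a p under 0.05, as did 2686 of all 13364 genes tested. DESeq2 called 7 members lower and 0 higher, against 567 lower and 686 higher of all genes. The median log2 change was -0.56 over the 35 genes and 0.06 over all genes tested, and 30 of the 35 lay below 0. Sec62 stood at 63.1, 59.5 and 53.2 normalized CPM for cortex input, 53.1, 54.0 and 41.5 for cortex TRAP, 149, 139 and 144 for synaptoneurosome input and 64.1, 74.2 and 47.0 for PAP TRAP. Its synaptoneurosome inputs were above all 9 other libraries, and it fell by 1.22 ± 0.25 on the log2 scale in PAP TRAP (adjusted p = 0.0101). Dnajb11 stood at 19.6, 25.1 and 24.1 normalized CPM for cortex input, 26.1, 15.3 and 29.6 for cortex TRAP, 49.2, 32.5 and 77.4 for synaptoneurosome input and 20.7, 25.0 and 17.9 for PAP TRAP, and its PAP TRAP libraries were below all 3 synaptoneurosome inputs. It fell by 1.33 ± 0.36 (adjusted p = 0.0421).

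Sec62 was past the threshold in all but 1 of the fits that left out a library, with an adjusted p of 0.0508 without PAP TRAP replicate 3, and Dnajb11 lost its call without any library other than synaptoneurosome input replicate 2 (adjusted p 0.0726 to 0.210), and also without mitochondrial genes (0.0583). Hspa5 had a change of -0.0010 ± 0.27 on the log2 scale, with a 95% interval of -0.57 to 0.57. Dad1 had the highest change, 0.50 ± 0.30 (adjusted p = 0.376), and Sec61g the lowest, with an interval of -4.54 to -0.46 (adjusted p = 0.154), at 2 to 64 counts per library. Astrocyte markers rose in 3 of 10 cases and microglial markers fell in 2 of 8. Neuronal markers rose in 1 of 10 cases and fell in 2, and oligodendrocyte markers rose in 1 of 6 and fell in 1. The 6 B lineage and plasma cell genes summed to 4.04e-05% to 7.03e-05% of nuclear counts in synaptoneurosome input and 0.00343% to 0.0272% in PAP TRAP, where replicate 2 was the highest. Of the 4 that were tested, 3 rose. The part of these markers in the ER gene values was not tested.

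**Figure D4:**
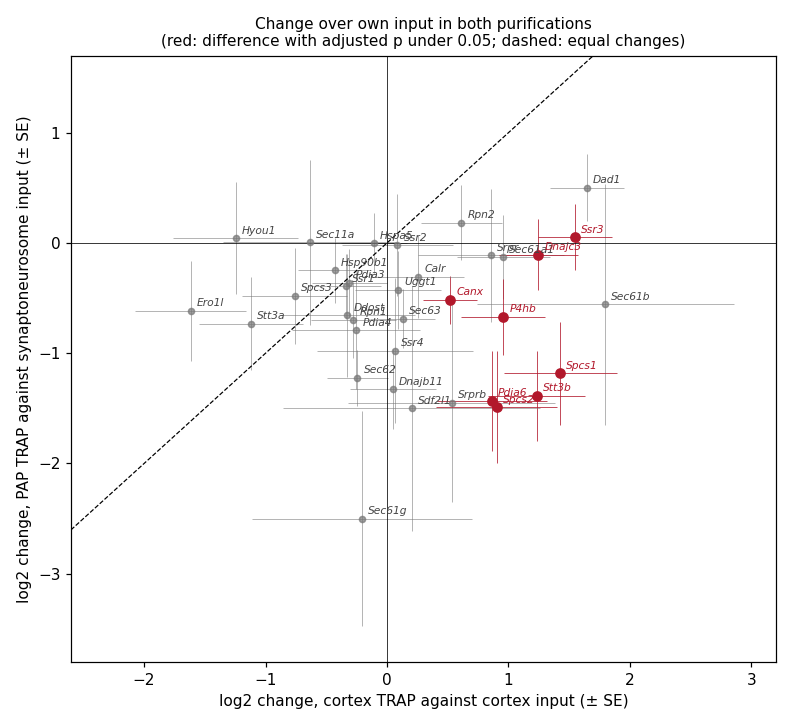
Log2 change of the 35 genes in cortex TRAP against cortex input (horizontal axis) and in PAP TRAP against synaptoneurosome input (vertical axis), each with its SE, and a dashed line where both would be equal. The 8 red genes, whose difference passed an adjusted p of 0.05, all lie below the line, and Hyou1, Ero1l and Stt3a are among the few above it.

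The difference between both changes over input was tested as an interaction. Of the 35 genes, 8 had a lower change over input in the synaptoneurosome layer than in whole tissue and 0 a higher one, against 20.2% of all genes called, 12.9% higher and 7.32% lower. Without adjustment, 12 of the 35 had a p under 0.05, as did 4273 of all 13364 genes tested. The median difference was -0.97 over the 35 genes and 0.03 over all genes tested. The 8 were spread over the roles: Ssr3 of the translocon-associated complex, Spcs1 and Spcs2 of the signal peptidase, Stt3b of the oligosaccharyltransferase, Dnajc3, Canx, P4hb and Pdia6. Astrocyte markers moved in the same direction, with 10 of 10 lower in this test, and 9 of 10 neuronal markers were higher. Their part in the result was not tested.

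Stt3b stood at 17.9, 22.8 and 27.5 normalized CPM for cortex input, 91.7, 36.5 and 32.3 for cortex TRAP, 78.1, 59.1 and 69.7 for synaptoneurosome input and 39.4, 24.5 and 15.2 for PAP TRAP. Cortex TRAP replicate 1 stood well above the other cortex TRAP libraries, and the PAP TRAP libraries were all below the synaptoneurosome inputs. Its changes over input were 1.23 ± 0.40 in whole tissue and -1.39 ± 0.41 in the layer, a difference of -2.62 ± 0.57 on the log2 scale (adjusted p = 0.00257). Spcs1 stood at 5.21, 7.64 and 5.56 normalized CPM for cortex input, 12.01, 13.6 and 23.9 for cortex TRAP, 19.8, 18.5 and 11.002 for synaptoneurosome input and 7.37, 9.34 and 4.90 for PAP TRAP, highest in cortex TRAP and synaptoneurosome input and lower in the other groups, with a difference of -2.61 ± 0.66 (adjusted p = 0.00794). Pdia6 stood at 6.81, 6.91 and 5.38 normalized CPM for cortex input, 13.1, 9.45 and 12.3 for cortex TRAP, 37.4, 46.0 and 13.9 for synaptoneurosome input and 15.4, 12.9 and 7.61 for PAP TRAP, with synaptoneurosome input replicate 3 below the highest PAP TRAP library, and a difference of -2.30 ± 0.64 (adjusted p = 0.0145). The differences of Hspa5, Hsp90b1 and Pdia3 were 0.11 ± 0.39, 0.18 ± 0.42 and -0.05 ± 0.44, none past the threshold. The highest difference was that of Hyou1, 1.29 ± 0.72 (adjusted p = 0.235), and without cortex TRAP replicate 3 it was 2.23 and passed, higher in the layer (0.0252).

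Stt3b and Spcs1 kept their calls with each of the 12 libraries left out, and Stt3b moved to -1.85 without cortex TRAP replicate 1. Pdia6 lost its call without cortex input replicate 3 or synaptoneurosome input replicate 2 (adjusted p = 0.0580 and 0.0637) and Spcs2 without cortex input replicate 1 or 2, cortex TRAP replicate 1 or synaptoneurosome input replicate 1 (0.0589 to 0.0836). Ssr3 lost it without cortex input replicate 1 or 3, cortex TRAP replicate 2 or 3, synaptoneurosome input replicate 3 or PAP TRAP replicate 1 (0.0509 to 0.0850). Canx lost it without cortex input replicate 1 or 3, any cortex TRAP library, synaptoneurosome input replicate 2 or PAP TRAP replicate 1 (0.0541 to 0.128), and P4hb without cortex input replicate 1 or 2, cortex TRAP replicate 1 or 2, synaptoneurosome input replicate 2 or 3 or PAP TRAP replicate 1 (0.0532 to 0.112). Dnajc3 kept its call without cortex input replicate 2, cortex TRAP replicate 2 or synaptoneurosome input replicate 1 and lost it without any of the 9 other libraries (0.0575 to 0.178), and without mitochondrial genes (0.0617). With no filter on low counts, Dnajc3 and Canx lost theirs (0.0874 and 0.102). With offsets corrected for length, Spcs1 went to -1.62 (adjusted p = 0.0914) and P4hb to -1.16 (0.116).

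Stt3a and Stt3b are alternative catalytic subunits of the oligosaccharyltransferase: complexes with Stt3a glycosylate chains as they enter the ER, and those with Stt3b act on sites that were skipped. Neither has a near-identical copy or an overlapping gene in the annotation. Stt3a stood at 20.5, 23.3 and 21.3 normalized CPM for cortex input, 14.4, 10.4 and 5.08 for cortex TRAP, 52.9, 52.6 and 75.3 for synaptoneurosome input and 26.9, 19.2 and 62.9 for PAP TRAP. The ratio of Stt3a counts to Stt3b counts within a library was 1.15, 1.02 and 0.773 in cortex input and 0.158, 0.286 and 0.157 in cortex TRAP. It was 0.677, 0.889 and 1.08 in synaptoneurosome input and 0.682, 0.781 and 4.15 in PAP TRAP. The 3 cortex TRAP libraries lay below the 9 others, and PAP TRAP replicate 3, with 810 counts of Stt3a and 195 of Stt3b, lay above them. A ratio within a library shows that the pair changed unequally and not which of them changed.

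**Figure D5:**
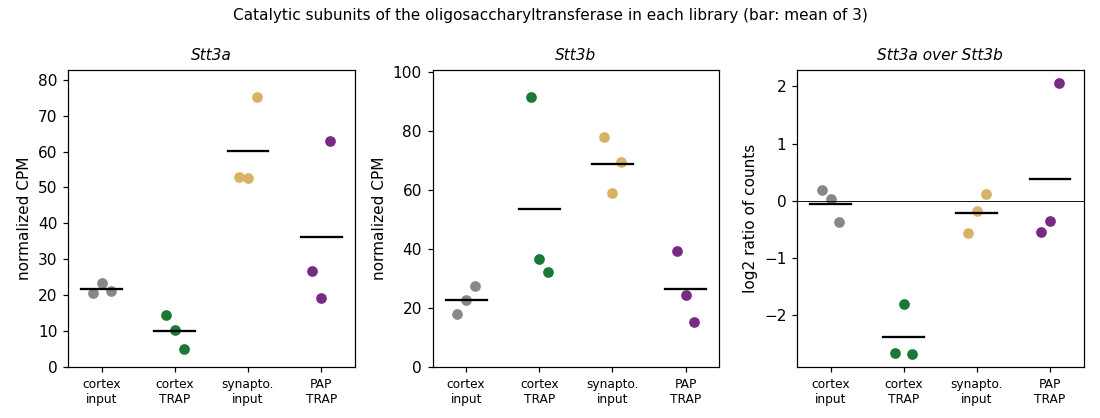
Normalized CPM of Stt3a (left) and Stt3b (middle) and the log2 ratio of their counts (right) in each of the 12 libraries (points), with the mean of 3 as a bar. The ratio lies between -2.67 and -1.80 in cortex TRAP and between -0.56 and 2.05 in the other libraries, where PAP TRAP replicate 3 stands apart.

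Outside the list, 84 other genes of the same pathway were followed, from targeting to export to the Golgi, and 81 were tested. In synaptoneurosome input against cortex input, 12 of them rose and 0 fell, against 7.26% and 2.07% of all genes, among them Ganab, which trims glucose from new glycans so that calnexin can bind, at 1.67 ± 0.34 on the log2 scale, and Emc7, a subunit of the ER membrane insertase, at 1.40 ± 0.27. Of these 12, 4 were genes of degradation from the ER and 0 of the 10 genes of the ER to Golgi coat passed. In PAP TRAP against cortex TRAP, 16 rose and 9 fell, near the 19.3% and 14.6% of all genes. Sel1l, an adaptor of ER-associated degradation, rose from 36.4 ± 11.8 normalized CPM in cortex TRAP to 175 ± 32.0 in PAP TRAP (SD, n = 3, log2 change 2.27 ± 0.29), and Alg2, which builds the lipid-linked glycan, from 20.1 ± 3.23 to 99.5 ± 35.4 (log2 change 2.31 ± 0.31). Atf4, a transcription factor of the stress response whose own translation is regulated, fell from 168 ± 14.6 to 22.1 ± 9.64 (log2 change -2.93 ± 0.37), and Srp19, a protein of the signal recognition particle, from 35.99 ± 1.27 to 8.28 ± 5.64 (log2 change -2.12 ± 0.50). The shift of Srp19 was -2.78 without PAP TRAP replicate 2, and with length-corrected offsets Sel1l went to 1.53 and Atf4 to -2.18.

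In cortex TRAP against cortex input, 10 of the 81 rose and 9 fell, below the 15.9% and 19.5% of all genes. Atf4 rose by 2.06 ± 0.35 on the log2 scale, from 40.3 ± 1.37 normalized CPM in cortex input, and stood at 18.7 ± 8.01 in synaptoneurosome input (SD, n = 3). Sar1b, the small GTPase that starts the COPII coat, rose by 2.03 ± 0.42, or 1.11 without cortex TRAP replicate 1 and 1.09 with length-corrected offsets. Tmx4, a membrane-bound disulfide isomerase relative, fell by 2.76 ± 0.29 and Alg2 by 1.89 ± 0.30, and the change of Tmx4 was -2.05 with length-corrected offsets. In PAP TRAP against synaptoneurosome input, 0 rose and Tmx4 alone fell, by 1.97 ± 0.28 (adjusted p = 0.000621), against 3.0% higher and 1.53% lower of all genes. In the difference between both changes over input, 3 were higher and 8 lower, against 12.9% and 7.32% of all genes. Those higher included Alg2 at 1.38 ± 0.41 and Sel1l at 1.22 ± 0.40, and those lower Emc7 at -1.56 ± 0.38 and Sar1b at -2.43 ± 0.59. Alg2 lost that call without synaptoneurosome input replicate 1 or 2 or PAP TRAP replicate 3 (adjusted p 0.0592 to 0.0741), Sel1l lost it without cortex input replicate 3, synaptoneurosome input replicate 1 or 2 or PAP TRAP replicate 1 or 3 (0.0572 to 0.0864), and Sar1b moved to -1.51 without cortex TRAP replicate 1. With length-corrected offsets Sel1l and Sar1b lost their calls in the difference, at 0.57 (adjusted p = 0.342) and -1.30 (0.126).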

How the data were processed

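Per the labels' protocols, 2 ng of RNA was amplified with SPIA and 500 ng of sheared cDNA, about 200 bp long, went into each of 12 libraries. The labels give all groups the same extraction text. The authors deposited raw counts per gene, judged by their whole numbers and unequal totals. Trimmomatic 0.32, Bowtie2, STAR and HTSeq are named in the submitters' processing notes. Genome build, annotation and strand use of the counting: not given in the sources used here. Rows naming no gene (20.3% to 55.5% of counts) stayed out of library sizes and tests.

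Genes passing filterByExpr (minimum count 10, minimum total 15) were fitted over all libraries with 1 mean per group by edgeR 4.0.16 (quasi-likelihood, TMM factors 0.191 to 2.46, R 4.3.3), with Benjamini-Hochberg adjustment over 13364 genes and calls at 0.05. Values are log2 changes ± SE, levels are normalized CPM, and intervals are 95%. Positions, lengths and overlaps came from GENCODE M21, and near-identical copies from BLAST 2.17.0. The fit was also run on simulated counts with known changes, a check of the code that gives no error rate for these groups. The members, lists and rule for named genes (per comparison the 3 rises and 3 falls with the smallest p, the highest member of each role by mean level, ends of ranges, and 2 rises and 2 falls among other pathway genes) were chosen with earlier results of these data known. The Stt3a to Stt3b ratio was chosen after its values were seen. Other scalings, filters, DESeq2 and fits without each library were alternatives. Amplified reads without molecular identifiers are not independent molecules.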

Additional observations from a re-analysis of the deposited data

Results flagged for a closer look

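The change over input differed between whole tissue and the synaptoneurosome layer in 8 genes by the interaction test of the edgeR fit, and all 8 were lower in the layer. On the log2 scale the differences were -2.62 for Stt3b, -2.61 for Spcs1, -2.39 for Spcs2, -2.30 for Pdia6, -1.63 for P4hb, -1.50 for Ssr3, -1.35 for Dnajc3 and -1.04 for Canx. Each is listed because that test passed an adjusted p of 0.05, against 7.32% of all genes tested that were called lower. Only Stt3b kept its call in every alternative that was run.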

How the results depend on the processing

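Of the calls of single members, 3 of 8 held in every alternative run for cortex TRAP against cortex input, 0 of 2 for PAP TRAP against synaptoneurosome input, 6 of 11 for PAP TRAP against cortex TRAP, 11 of 18 for synaptoneurosome input against cortex input and 1 of 8 for the difference between the changes over input. The cause was not tested, except that a minimum fold and fewer libraries are stricter by construction. One member reversed: Ssr1 in PAP TRAP against cortex TRAP, at -0.022 with length-corrected offsets. In cortex TRAP against cortex input, members called lower went from 2 to 1 without mitochondrial genes, with length-corrected offsets and with a minimum fold of 1.5, which left 3 called higher; with 1 library left out, 3 to 5 were higher and 1 to 2 lower. In PAP TRAP against synaptoneurosome input, members called lower numbered 7 by DESeq2, 1 without mitochondrial genes, 1 with length-corrected offsets, 0 with the minimum fold, and 0 to 2 with 1 library left out, while all genes called went from 605 to 1253 by DESeq2, 137 with the minimum fold and 292 to 521 with 1 library left out. Of those calls, 66.3% were higher, against 79.1% without mitochondrial genes (573 of 724) and 54.7% by DESeq2 (686 of 1253). In PAP TRAP against cortex TRAP, members called lower numbered 2 by DESeq2, 0 in a fit of the compared groups alone, 0 without mitochondrial genes, 0 with length-corrected offsets, 0 with the minimum fold and 0 to 2 with 1 library left out. In synaptoneurosome input against cortex input, all genes called went from 1246 to 2035 by DESeq2, 2251 with the compared groups alone, 547 with the minimum fold (91.6% of them higher, against 77.8%) and 608 to 1025 with 1 library left out, and members called higher from 18 to 11 with the minimum fold and 11 to 15 with 1 library left out. In the difference, members called lower went from 8 to 5 with the minimum fold and 3 to 8 with 1 library left out, and higher from 0 to between 0 and 1. Leaving out the mitochondrial genes moved the median of all genes from -0.28 to -0.11 in PAP TRAP against cortex TRAP, and that of the members from 0.38 to 0.52. It moved that of all genes from 0.06 to 0.17 in PAP TRAP against synaptoneurosome input (members -0.56 to -0.45) and from 0.03 to 0.14 in the difference (members -0.97 to -0.84).

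With the replicate number as a replicate block, members called lower in PAP TRAP against cortex TRAP went from 1 to 3, and 3 calls ended: Stt3a in cortex TRAP against cortex input (adjusted p = 0.0549), Dnajb11 in PAP TRAP against synaptoneurosome input (0.0549) and Dnajc3 in the difference (0.0581). The numbers are not stated to pair libraries: same-numbered libraries correlated at 0.0124 to 0.0713 in their deviations from the group means, in each case above libraries of other numbers, a hint from the data and not the design. Counts of nuclear genes, lowest in synaptoneurosome input, limit what can be seen for genes of few counts such as Sec61b, Sec61g, Srprb and Sdf2l1.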
